A study of Nothobranchius furzeri with 15 samples.

Results

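Brains of GRZ-AD, a strain of the annual fish Nothobranchius furzeri (African turquoise killifish), were compared at 8.5 weeks and 3.5 weeks of age in 6 of the 15 libraries of a study of circular RNAs during ageing. The 6 were chosen by tissue and age from the labels, with 3 libraries at 8.5 weeks and 3 at 3.5 weeks, and all 1810 circRNAs listed by the authors were examined in them. The other 9 libraries are 3 of brain at 14 weeks and 6 of muscle, 2 at each age; no genotype, sex or treatment is labelled, and the fish of every group share the strain. Total RNA was depleted of ribosomal RNA and sequenced as stranded paired reads. Whether each library is a separate animal is not labelled, and p-values here reflect only the scatter of these libraries, part or all of which may be technical.

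A circular RNA forms when the spliceosome joins the end of an exon back to the start of the same or an earlier exon, and the closed loop has no free ends for exonucleases to attack. In the brains of mammals and flies circRNAs are abundant, often come from genes of the synapse, and many rise as neurons mature. Because loop and linear messenger compete for the same transcript, the circular share (circular reads as a percentage of all reads, circular and linear, counted at a position) can move apart from the level of the host gene. Levels below, of circular and linear reads alike, are CPM: reads relative to the scaled linear total of the library, with no division by length. In bulk tissue, fewer cells of a type and less RNA per cell cannot be told apart. CircRNAs carry the symbol of the host gene and, where a host has several, a number after "c"; those without a host are called unannotated.

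Circular reads numbered 3477, 2095 and 3991 in libraries 1, 2 and 3 of 8.5 weeks, against 2642, 2209 and 2826 in those of 3.5 weeks. The linear counts summed to 80405 to 113559 at 8.5 weeks and 92155 to 116147 at 3.5 weeks. Circular reads were detected for 1418 circRNAs of 1018 hosts: 298 had reads at 8.5 weeks alone, none with more than 9, 202 at 3.5 weeks alone, none with more than 12, and 918 at both ages. The median was 6 circular reads per detected circRNA over the 6 libraries, so single circRNAs carry wide counting error. Libraries 2 and 3 of 3.5 weeks also held muscle transcripts. Positions were called muscle positions where the mean linear level in the 6 muscle libraries was at least 4 times that in 14-week brain, or where the host was on a list of muscle genes, 123 positions in all. They held 1.52, 1.33 and 1.53% of linear reads at 8.5 weeks, against 1.81, 6.66 and 4.25% at 3.5 weeks; muscle libraries had 58.0 to 62.8%. Brain markers were present at both ages: the hosts snap25, syt1 and elavl4, 3 of 21 neuronal markers, summed to 38536, 35564 and 39193 linear CPM at 8.5 weeks and 31645, 31025 and 29317 at 3.5 weeks. No microglial marker of 20 was among the hosts, so that cell type could not be followed.

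Circular RNAs made up a larger part of the reads in the older brains. All 3 libraries of 8.5 weeks lay above all 3 of 3.5 weeks in total circular share, which averaged 3.06% ± 0.455 at 8.5 weeks, against 2.31% ± 0.0802 at 3.5 weeks (SD, n = 3 each). Without the muscle positions the share was 3.24, 2.55 and 3.39% at 8.5 weeks, against 2.23, 2.45 and 2.44% at 3.5 weeks, a difference of 0.684 percentage points. The groups did not overlap, and the two-sided exact permutation p was 0.1 for both measures, the smallest that 3 against 3 libraries allow (0.138 after Benjamini-Hochberg adjustment over 11 such tests of library values). Library 2 of 8.5 weeks, the shallowest of the 6, had the lowest share of its age. The order of the ages was not particular to brain. Muscle libraries had a total circular share of 3.38 and 3.18% at 8.5 weeks, against 1.38 and 1.39% at 3.5 weeks. Without the muscle positions those values were 5.01 and 4.90% at 8.5 weeks, against 2.01 and 2.19% at 3.5 weeks. The number of circRNAs detected, after every library was thinned to 2095 circular reads, was 663 ± 36.8 at 8.5 weeks and 624 ± 4.72 at 3.5 weeks, with overlapping groups (exact permutation p = 0.4, adjusted 0.44). The difference of 39.2 circRNAs became 60.4 without library 2 of 8.5 weeks (exact permutation p = 0.1). With any other library left out it was 27.8 to 41.9 (exact permutation p = 0.4 each).

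The classes of loops differed in how far apart the ages lay. The share of the exonic loops was 2.92, 2.30 and 3.20% at 8.5 weeks, against 1.79, 1.88 and 1.97% at 3.5 weeks, without overlap. The mean was 2.81% ± 0.459 at 8.5 weeks, against 1.88% ± 0.0880 at 3.5 weeks (SD, n = 3 each; difference 0.930 points, exact permutation p = 0.1, adjusted 0.138). CircRNAs with an end outside annotated exons had 4.29, 3.18 and 4.02% at 8.5 weeks and 3.74, 4.10 and 3.81% at 3.5 weeks, which overlap (difference -0.05 points, exact permutation p = 0.9); the sign of that difference turned positive without library 2 of 8.5 weeks (0.276) or library 2 of 3.5 weeks (0.0592). Set against each other within each library, the log2 ratio of the exonic to the other class was -0.55, -0.47 and -0.33 at 8.5 weeks and -1.06, -1.12 and -0.95 at 3.5 weeks. Those groups do not overlap, and the difference was 0.60 on the log2 scale (exact permutation p = 0.1, adjusted 0.138). This contrast was added after the data had been seen. CircRNAs with no annotated host had 1.11, 0.785 and 1.24% at 8.5 weeks and 0.697, 0.773 and 0.734% at 3.5 weeks, also without overlap (exact permutation p = 0.1, adjusted 0.138). The share of loops shorter than the median distance between ends was higher at 8.5 weeks by 0.825 points (exact p = 0.1) and that of longer ones by 0.565 (exact p = 0.2, adjusted 0.244). For hosts with a single circRNA the difference was 0.975 points and for hosts with several 0.834 (exact p = 0.1 each). The order of the classes depends on the positions with the most linear reads: without the 10 highest, the difference was 1.40 points for shorter loops, 1.12 for hosts with a single circRNA, 1.07 for loops with no annotated host (0.308 with them) and 1.02 for exonic loops. For loops with an end outside exons it was then 0.302 points, and the difference in the log2 ratio of the exonic to the other class was 0.488.

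**Figure D1:**
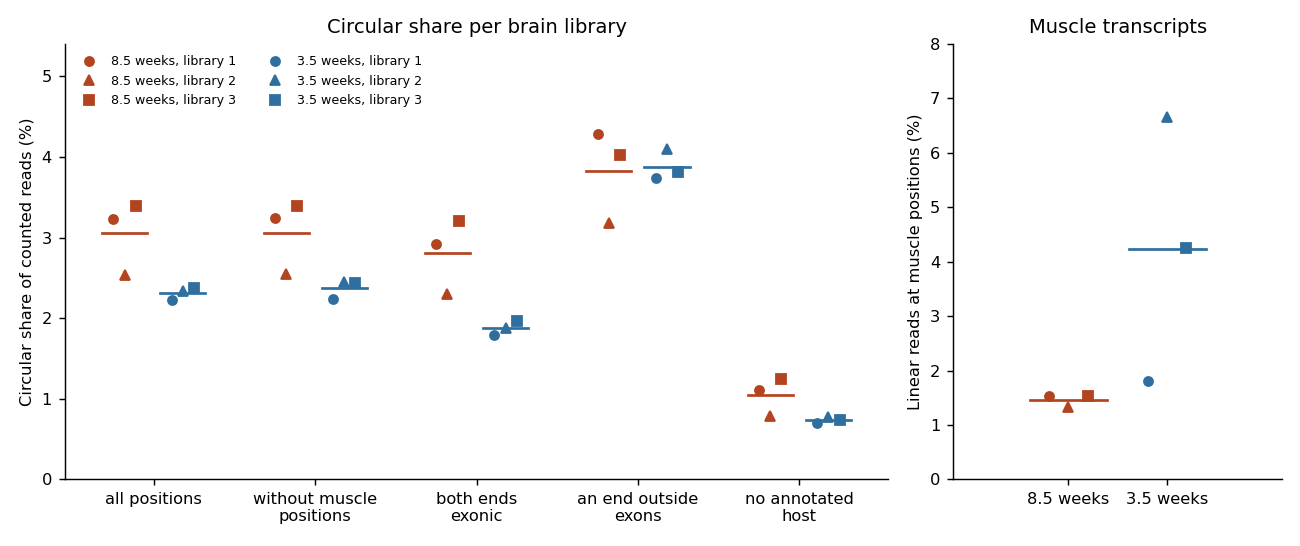
Left, circular share in percent of circular plus linear reads, for each brain library at 8.5 and 3.5 weeks (points, with lines for the means), over all positions and by class; right, percent of linear reads at muscle positions. Exonic loops were at 2.30 to 3.20% at 8.5 weeks and 1.79 to 1.97% at 3.5 weeks, and libraries 2 and 3 of 3.5 weeks stand out at muscle positions with 6.66 and 4.25%.

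Most single circRNAs had a higher fitted level at 8.5 weeks, and 1 of them passed the test. Of 639 circRNAs tested, each with at least 10 circular reads summed over the 9 brain libraries, 420 (65.7%) had a fitted log2 change above 0, with a median of 0.47. The median was 0.82 without libraries 2 and 3 of 3.5 weeks (69.4% above 0) and 0.30 without library 3 of 8.5 weeks (57.7%). With other pairs of 3.5-week libraries left out it was also higher, 0.71 without libraries 1 and 2 and 0.72 without libraries 1 and 3. In edgeR's quasi-likelihood test, with library sizes from linear reads, 1 circRNA passed an adjusted p of 0.05, that of gabra6b, which was higher (0.156% of those tested), and 0 were lower. At an unadjusted p under 0.05 there were 60 (9.39%), 54 higher and 6 lower. Scaling by the circular reads themselves, which removes a difference common to all circRNAs, brought the median to 0.11 and the unadjusted calls to 29 higher and 17 lower. Circular levels did not overlap between the ages for 80 circRNAs that were higher at 8.5 weeks (12.5%) and 8 that were lower (1.25%). The circular share passed for 0 of 638 circRNAs in edgeR (42 at an unadjusted p under 0.05) and for 0 in a beta-binomial test (88 unadjusted).

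gabra6b encodes the alpha6 subunit of the GABA-A receptor, the chloride channel of fast inhibition, which in mammals is the subunit of cerebellar granule cells. Its circRNA (chromosome 15, 23754773 to 23755793, minus strand, both ends exonic) had 26, 14 and 3 circular reads at 8.5 weeks, against 1, 0 and 4 at 3.5 weeks. The groups overlap, because library 3 of 8.5 weeks lay below library 3 of 3.5 weeks. The mean level was 152 ± 115 CPM at 8.5 weeks, against 14.5 ± 18.3 CPM at 3.5 weeks (SD, n = 3 each), a pooled ratio of 9.49 with a counting interval of 3.77 to 30.7 (exact, 95%). The log2 change was 3.21 (SE 0.74, edgeR adjusted p = 0.00871). Linear reads at the position numbered 202, 202 and 207 at 8.5 weeks and 182, 135 and 171 at 3.5 weeks, a change of 0.49 that did not pass (edgeR adjusted p = 0.105). Without libraries 2 and 3 of 3.5 weeks the circular change was 3.99 and no longer passed (edgeR adjusted p = 0.151). It did not pass either without library 1 (adjusted p = 0.422) or library 2 (0.0532) of 8.5 weeks, without library 1 (0.160) or library 2 (0.155) of 3.5 weeks, in DESeq2 (0.171), or with the replicate number as a block (0.0802). Over these 7 fits the log2 change lay between 2.59 and 3.99.

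**Figure D2:**
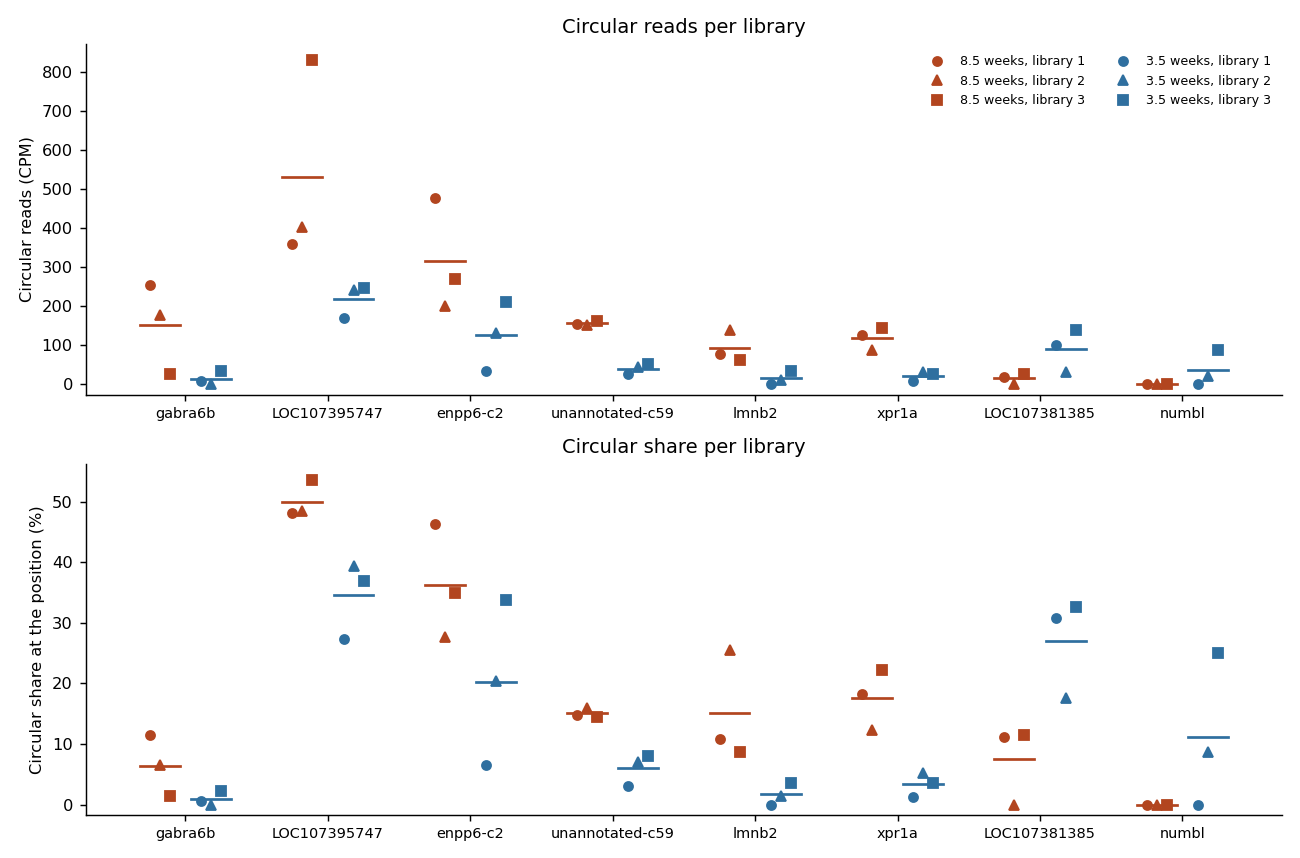
Circular level in CPM (upper panels) and circular share in percent (lower panels) of 8 circRNAs in each brain library at 8.5 and 3.5 weeks; each point is a library. gabra6b and enpp6-c2 overlap between the ages, and LOC107395747, unannotated-c59, lmnb2 and xpr1a do not. LOC107381385 is lower at 8.5 weeks without overlap, and numbl has 0 reads at 8.5 weeks and in library 1 of 3.5 weeks.

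The circRNAs described next were higher at 8.5 weeks without overlap and were among those with the smallest unadjusted p (edgeR, 0.000242 to 0.00614). They came from genes of varied function, some had few reads, and none of them passed the adjusted test. LOC107395747 (chromosome 5, 26843263 to 26848780), named by identifier only, had 37, 32 and 92 circular reads at 8.5 weeks, against 20, 22 and 28 at 3.5 weeks. Its share was 48.1, 48.5 and 53.5% at 8.5 weeks, against 27.4, 39.3 and 36.8% at 3.5 weeks. Circular reads were thus about as many as the linear reads counted at the position in the older brains. The circular level was 532 ± 260 CPM at 8.5 weeks, against 219 ± 42.9 CPM at 3.5 weeks (SD, n = 3 each; log2 change 1.29, SE 0.35, edgeR adjusted p = 0.0772). An unannotated loop on chromosome 16 (30654697 to 30664971), unannotated-c59, had 16, 12 and 18 reads at 8.5 weeks, against 3, 4 and 6 at 3.5 weeks. The older libraries lay close together, at 157 ± 5.60 CPM at 8.5 weeks, against 40.7 ± 13.9 CPM at 3.5 weeks (log2 change 1.93, SE 0.59, edgeR adjusted p = 0.167).

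lmnb2 encodes lamin B2, a fibre protein of the nuclear envelope. Its loop (chromosome 16, 35741602 to 35745989) had 8, 11 and 7 circular reads at 8.5 weeks, against 0, 1 and 4 at 3.5 weeks, while the linear level was 644, 404 and 659 CPM at 8.5 weeks, against 856, 735 and 940 CPM at 3.5 weeks. Circular levels were thus higher and linear levels lower in the older brains, both without overlap; the pooled share was 13.2% at 8.5 weeks and 1.79% at 3.5 weeks. The circular log2 change was 2.48 (SE 0.78, edgeR adjusted p = 0.167) and the change of the circular to linear ratio 3.10 (edgeR adjusted p = 0.612). xpr1a encodes a phosphate exporter, and its loop (chromosome 17, 12563916 to 12574762) had 13, 7 and 16 reads at 8.5 weeks, against 1, 3 and 3 at 3.5 weeks. That is 120 ± 28.7 CPM at 8.5 weeks, against 22.6 ± 12.7 CPM at 3.5 weeks (log2 change 2.40, edgeR adjusted p = 0.167). tnpo1, a nuclear import receptor, had a share of 22.9, 19.6 and 19.5% at 8.5 weeks and 5.26, 14.5 and 8.54% at 3.5 weeks. It is outside the rule for named genes and was picked after its values were seen. ptprfa-c1, from a receptor tyrosine phosphatase of the LAR family, had 12, 9 and 15 reads at 8.5 weeks, against 5, 3 and 3 at 3.5 weeks (log2 change 1.81, edgeR adjusted p = 0.279). LOC107390307-c1 had 48, 31 and 46 reads at 8.5 weeks, against 18, 23 and 26 at 3.5 weeks, a pooled share of 34.1% at 8.5 weeks and 21.3% at 3.5 weeks (log2 change 1.01, edgeR adjusted p = 0.279).

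A loop of a glial gene varied widely among the young libraries. enpp6 encodes a choline phosphodiesterase that in mice marks newly forming oligodendrocytes, the cells that make myelin. Its loop enpp6-c2 (chromosome 2, 69361184 to 69363012, minus strand) had 49, 16 and 30 circular reads at 8.5 weeks, against 4, 12 and 24 at 3.5 weeks, which overlap. Linear reads at the position were 57, 42 and 56 at 8.5 weeks, against 58, 47 and 47 at 3.5 weeks, so the share was 46.2, 27.6 and 34.9% at 8.5 weeks, against 6.45, 20.3 and 33.8% at 3.5 weeks. The circular change was 1.34 (SE 0.42, edgeR adjusted p = 0.167). Without libraries 2 and 3 of 3.5 weeks, which leaves library 1 with its 4 reads, it was 3.20 and was the 1 circRNA that passed (edgeR adjusted p = 0.00986); the lone library is there assumed to vary like those of the other ages.

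Several of the most abundant loops of the brain overlapped between the ages. LOC107387794 had 76, 53 and 85 reads at 8.5 weeks, against 77, 73 and 62 at 3.5 weeks (log2 change 0.13, edgeR adjusted p = 0.943), with most reads at its position circular at both ages. bace1, the beta-secretase, had 58, 61 and 54 reads at 8.5 weeks, against 69, 40 and 67 at 3.5 weeks (log2 change 0.17). klc1, a kinesin light chain, had 65, 33 and 48 at 8.5 weeks and 65, 43 and 83 at 3.5 weeks (-0.24), and eif3l, a subunit of a translation initiation factor, had 35, 29 and 59 at 8.5 weeks and 58, 70 and 36 at 3.5 weeks (-0.33). None of these 4 passed. oxr1, an oxidation resistance gene, did not overlap, with 449, 341 and 497 CPM at 8.5 weeks and 314, 274 and 281 CPM at 3.5 weeks (log2 change 0.57, edgeR adjusted p = 0.642).

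Loops that were lower in the older brains without overlap were few. LOC107381385 (chromosome 2, 29182003 to 29184098) had 2, 0 and 3 circular reads at 8.5 weeks, against 12, 3 and 16 at 3.5 weeks, without overlap in CPM. Its level was 15.5 ± 14.0 CPM at 8.5 weeks, against 91.7 ± 54.5 CPM at 3.5 weeks (SD, n = 3 each; ratio 0.178, exact 95% interval 0.0541 to 0.462). The log2 change was -2.40 (SE 0.85, edgeR adjusted p = 0.279). numbl, a Numb-like adaptor of Notch signalling, had 0 reads in all 3 libraries of 8.5 weeks and 0, 2 and 10 at 3.5 weeks (edgeR adjusted p = 0.359). The level of numbl was 3.62-fold lower when the older group was given a floor of 3 counts and the younger counts were taken as exact. Its reads thus came mainly from library 3, a library with muscle transcripts. ptprz1b-c2, from a receptor phosphatase of glial progenitors, had 0, 0 and 0 at 8.5 weeks and 0, 3 and 7 at 3.5 weeks, 3.02-fold lower by the same floor. All of its reads came from libraries 2 and 3 of 3.5 weeks, those with muscle transcripts. Both numbl and ptprz1b-c2 overlap between the ages, since library 1 of 3.5 weeks had 0 reads. astn1-c1, from a neuronal adhesion protein of migration, had 4, 1 and 2 reads at 8.5 weeks, against 2, 10 and 17 at 3.5 weeks. Its log2 change was -1.89 (edgeR adjusted p = 0.374), and 0.47 without libraries 2 and 3 of 3.5 weeks.

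**Figure D3:**
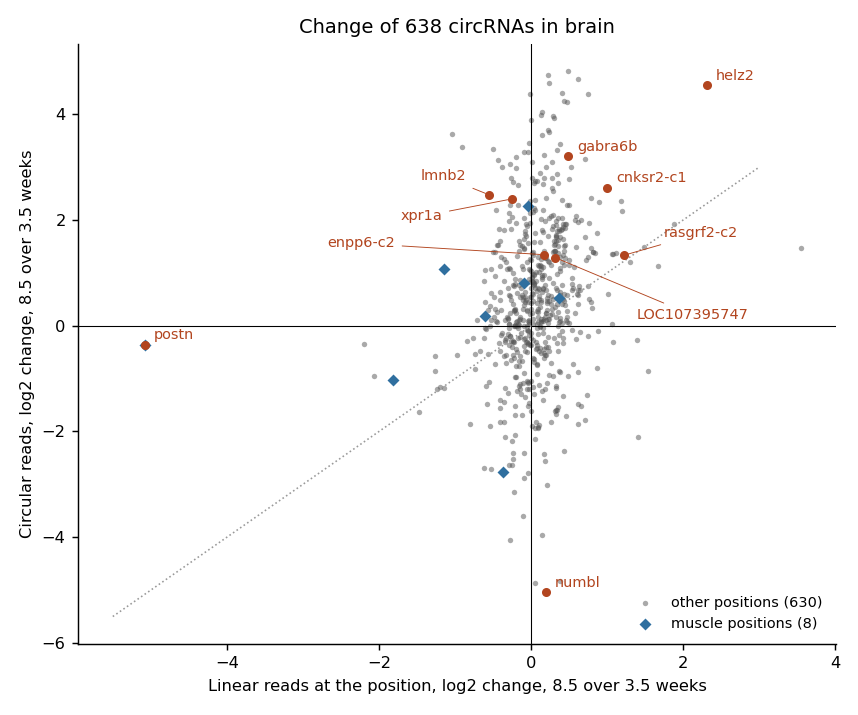
Log2 change, 8.5 over 3.5 weeks, of linear reads (horizontal) and circular reads (vertical) at 638 circRNA positions; each point is a circRNA, the 8 at muscle positions are marked and the diagonal shows equal change. The circular change lies above the linear one for 412 circRNAs, and 608 have a linear change within 1 of 0.

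Summed over each host, gabra6b was the 1 that passed (1 of 552, 0.181%, edgeR adjusted p = 0.0130). It has a single circRNA, so these are the same counts as tested above and not a further result. At an unadjusted p under 0.05 in edgeR there were 48 hosts (8.7%). The circular share of the host passed for 0 in edgeR (37 unadjusted, 6.7%) and 0 in the beta-binomial test (75 unadjusted). Circular levels of hosts did not overlap for 71 that were higher at 8.5 weeks (12.9%) and 6 that were lower (1.09%). ptprg, a receptor tyrosine phosphatase, summed to 26 circular reads at 8.5 weeks, against 4 at 3.5 weeks (log2 change 2.71, edgeR adjusted p = 0.194). The log2 change of its ratio of circular to linear reads was 2.99 (edgeR adjusted p = 0.582). Among the hosts with the most loops, grm8b, a metabotropic glutamate receptor with 6 detected, summed to 29 reads at 8.5 weeks, against 10 at 3.5 weeks (log2 change 1.64). si:ch211-186j3.6, with 7, had 19 reads at 8.5 weeks, against 17 at 3.5 weeks. grin2da, an NMDA receptor subunit with 5, had 37 at 8.5 weeks and 29 at 3.5 weeks. adgrb2, an adhesion receptor with 5, had 23 at 8.5 weeks and 18 at 3.5 weeks. nbeab, of the neurobeachin family of vesicle trafficking proteins, also with 5, had 12 at 8.5 weeks and 24 at 3.5 weeks (-0.83). None of the hosts ptprg, grm8b, si:ch211-186j3.6, grin2da, adgrb2 and nbeab passed.

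Linear reads at the same positions passed the test for more hosts than circular reads. Because circular reads were far fewer, the numbers of calls do not show which of them changed more. Of 1232 hosts, 32 (2.6%) changed, 12 up (0.974%) and 20 down (1.62%), at an adjusted p under 0.05 in edgeR, and the median change of all hosts was -0.02 on the log2 scale. Linear levels did not overlap for 116 hosts that were higher at 8.5 weeks (9.42%) and 114 that were lower (9.25%). All 12 hosts that rose lay outside muscle positions, while 16 of the 20 that fell had one. Of all hosts tested, 1163 had no muscle position and 69 had one, so only the hosts that fell depart from that background. Where a host has several overlapping loops, a linear read may be counted at more than 1 position, so host sums are not counts of distinct reads. Leaving out library 3 of 3.5 weeks brought the calls to 13, and leaving out library 1 or library 3 of 8.5 weeks to 17. Of the 12 that rose, cnksr2, rasgrf2, usp54b and helz2 passed whichever 1 of the 6 libraries was left out. The other 8 missed the threshold in 2 to 4 of the 6 fits, with edgeR adjusted p up to 0.222. They stayed above 0 in each fit, which the lack of overlap between the ages in all 12 hosts already implied.

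Signalling proteins of the synapse were among the hosts that rose. cnksr2, a scaffold that links Ras signalling to the postsynaptic density, had 1931, 1704 and 2059 linear CPM at 8.5 weeks and 865, 757 and 1089 at 3.5 weeks. The groups do not overlap, and cnksr2 rose by 1.07 on the log2 scale (SE 0.17, edgeR adjusted p = 0.00264). rasgrf2, an exchange factor that activates Ras and Rac, had 985, 782 and 912 linear CPM at 8.5 weeks and 331, 406 and 430 at 3.5 weeks (log2 change 1.21, SE 0.21, edgeR adjusted p = 0.00394). dlg1, a PDZ scaffold that carries glutamate receptors and potassium channels (SAP97 in mammals), had 3969, 3773 and 3992 at 8.5 weeks and 1890, 2820 and 2091 at 3.5 weeks (0.79, SE 0.17, edgeR adjusted p = 0.0154). For all 3, each library of 8.5 weeks lay above each of 3.5 weeks. dlg1 no longer passed without library 3 of 3.5 weeks (edgeR adjusted p = 0.0729), nor without library 1 or library 3 of 8.5 weeks. At 14 weeks, a further group of 3 libraries, the linear level was 1719 ± 196 CPM for cnksr2, 847 ± 205 for rasgrf2 and 2984 ± 565 for dlg1 (SD, n = 3). A second dlg1 gene, dlg1b, had a change of 0.46 and did not pass (edgeR adjusted p = 0.272), and the files do not say how reads shared by such copies were assigned.

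The summed circular reads of these 3 hosts were also more numerous in the older brains, and none of the 3 passed. The loops of cnksr2 together had 11, 17 and 18 circular reads at 8.5 weeks, against 5, 2 and 8 at 3.5 weeks (log2 change 1.78, edgeR adjusted p = 0.194), without overlap. Of these, cnksr2-c1 (chromosome 10, 5549757 to 5563556) had 7, 5 and 6 at 8.5 weeks and 3, 0 and 0 at 3.5 weeks. The loops of rasgrf2 (chromosome 19, both ending at 28614008) had 16, 7 and 25 at 8.5 weeks and 8, 8 and 1 at 3.5 weeks (1.55, edgeR adjusted p = 0.34), and those of dlg1 9, 6 and 10 at 8.5 weeks and 3, 2 and 4 at 3.5 weeks (1.58, edgeR adjusted p = 0.554). Over the 12 hosts that rose in linear reads, circular reads summed to 197 at 8.5 weeks and 69 at 3.5 weeks. Of the 9 with enough circular reads to be tested, 8 had a circular change above 0, with a median of 1.68. Over all hosts it was 369 of 552, with a median of 0.45. The exception of the 9 was LOC107381054, with 2 circular reads at 8.5 weeks and 8 at 3.5 weeks (-1.77). The 4 hosts outside muscle positions whose linear reads fell had 5 circular reads at 8.5 weeks and 1 at 3.5 weeks, too few to test. The linear and circular reads come from the same libraries.

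Other hosts that rose code for a receptor, a channel subunit and regulators of RNA and the cytoskeleton. adcyap1r1a, the receptor of the neuropeptide PACAP, had 1862, 1161 and 1843 linear CPM at 8.5 weeks and 1119, 944 and 931 at 3.5 weeks (log2 change 0.71, edgeR adjusted p = 0.0469). Its loop (chromosome 5, 25344602 to 25345588) had 156, 88.3 and 145 circular CPM at 8.5 weeks and 33.9, 32.9 and 52.7 at 3.5 weeks, without overlap (host log2 change 1.68, edgeR adjusted p = 0.34). kcnab1b, an auxiliary beta subunit of voltage-gated potassium channels, had 868, 606 and 750 linear CPM at 8.5 weeks and 407, 461 and 193 at 3.5 weeks (1.09, edgeR adjusted p = 0.0298). These groups do not overlap either. qkia is a quaking homologue, the RNA-binding protein that in mice is required for myelin and in human cells promotes the formation of circRNAs. It had 3793, 4430 and 3026 linear CPM at 8.5 weeks and 2331, 2425 and 1933 at 3.5 weeks (0.75, SE 0.17, edgeR adjusted p = 0.0258), without overlap, and 2957 ± 626 CPM at 14 weeks. Its change was 0.61 without library 2 of 8.5 weeks, 1 of 3 libraries whose removal ended the call (edgeR adjusted p = 0.0943). Its own loop had few reads, 0, 4 and 2 at 8.5 weeks and 1, 1 and 2 at 3.5 weeks, and did not pass (host log2 change 0.76, edgeR adjusted p = 0.903).

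helz2, which in mammals is an interferon-inducible helicase and coactivator, had the largest change of the 12. It had 1307, 316 and 488 linear CPM at 8.5 weeks and 161, 143 and 123 at 3.5 weeks, without overlap although library 1 of 8.5 weeks lay far above the other two (log2 change 2.32, SE 0.42, edgeR adjusted p = 0.00435). Without that library the change was 1.51 and still passed. At 14 weeks it had 596, 932 and 1000 CPM. Circular reads of helz2 numbered 4, 0 and 4 at 8.5 weeks and 0 in each library of 3.5 weeks. That is 2.94-fold higher when the younger group was given a floor of 3 counts and the older counts were taken as exact. usp54b, of the ubiquitin-specific protease family, had 1248, 1893 and 1563 linear CPM at 8.5 weeks and 551, 878 and 799 at 3.5 weeks (1.08, SE 0.21, edgeR adjusted p = 0.0062). lrmp, a membrane protein of the endoplasmic reticulum, had 478, 530 and 705 at 8.5 weeks and 280, 274 and 202 at 3.5 weeks (1.19, edgeR adjusted p = 0.0139). mprip, which binds myosin phosphatase and actin, rose by 0.70, and the hosts LOC107395712 and LOC107381054, named by identifier only, by 1.06 and 0.71. None of these 3 overlapped between the ages.

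**Figure D4:**
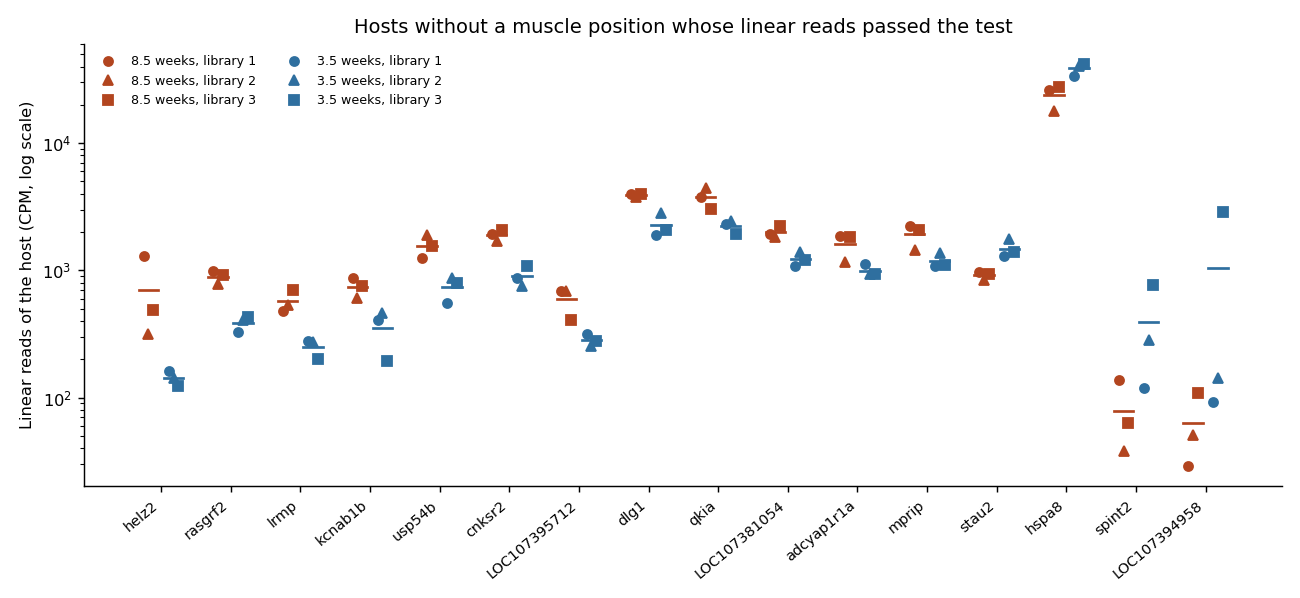
Linear level in CPM (log axis) of the 16 host genes without a muscle position that passed the test, in each brain library at 8.5 and 3.5 weeks; each point is a library. The 12 that rose do not overlap between the ages; of the 4 that fell, hspa8 and stau2 do not overlap, and spint2 and LOC107394958 overlap, with library 3 of 3.5 weeks far above the rest.

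Outside muscle positions 4 hosts fell. Of these, hspa8, spint2 and LOC107394958 had 0 circular reads in each of the 9 brain libraries. hspa8, the constitutive Hsp70 chaperone that folds new proteins and uncoats clathrin vesicles, had 26269, 17807 and 27487 linear CPM at 8.5 weeks and 33985, 40573 and 41810 at 3.5 weeks. The groups do not overlap (log2 change -0.70, SE 0.16, edgeR adjusted p = 0.0198), and at 14 weeks the level was 24103 ± 3798 CPM. Another hspa8 gene, hspa8b, is also a host, and how reads shared by such copies were assigned is not given. stau2, a Staufen protein that carries messengers into dendrites, had 975, 833 and 930 at 8.5 weeks and 1289, 1767 and 1397 at 3.5 weeks (-0.69, SE 0.16, edgeR adjusted p = 0.0258), also without overlap. hspa8 missed the threshold without library 3 of 3.5 weeks (edgeR adjusted p = 0.0729) or library 2 of 8.5 weeks, and stau2 without any 1 library but library 1 of 3.5 weeks (up to 0.152). The other two overlapped: spint2, a membrane-bound protease inhibitor, had 137, 37.9 and 63.2 at 8.5 weeks and 119, 285 and 773 at 3.5 weeks (-2.26, edgeR adjusted p = 0.0398). LOC107394958 had 3, 4 and 12 linear reads at 8.5 weeks, against 11, 13 and 329 at 3.5 weeks (-4.01, edgeR adjusted p = 0.0469). Without libraries 2 and 3 of 3.5 weeks these last 2 changes were -0.53 and -0.51.

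Among the hosts that fell and had a muscle position were sarcomere and connective tissue genes. ttn.2, a gene of titin, the spring of the sarcomere, had 78, 14 and 36 linear reads at 8.5 weeks, against 126, 990 and 639 at 3.5 weeks (log2 change -3.76, edgeR adjusted p = 0.00394; -1.30 without the 2 libraries). atp2a1, the calcium pump of the sarcoplasmic reticulum, had 44, 8 and 49 at 8.5 weeks and 71, 231 and 678 at 3.5 weeks (-3.17, edgeR adjusted p = 0.00394; -0.83 without). neb, nebulin of the thin filament, had 24, 2 and 8 at 8.5 weeks and 12, 201 and 126 at 3.5 weeks (-3.27, edgeR adjusted p = 0.0258; 0.18 without). Library 1 of 3.5 weeks lay far below libraries 2 and 3 for these 3 genes. postn, a matrix protein, had 19.5, 37.9 and 18.1 CPM at 8.5 weeks and 102, 1493 and 1002 at 3.5 weeks (-5.08; -2.02 without the 2 libraries). loxl3, an enzyme that crosslinks the matrix, had 9.75, 25.2 and 9.03 CPM at 8.5 weeks and 76.3, 187 and 87.9 at 3.5 weeks (-2.95; -2.37 without), so libraries 1 and 3 of 3.5 weeks were close. The change of myom2a was -5.33, and -2.12 without those libraries; none of these 6 passed in that comparison. ttn.1, mybpc2b (a myosin-binding protein), myom2a and myom2b (proteins of the M-band), atp1a2a (a sodium pump subunit) and ak1 (adenylate kinase) also fell, as did postn, loxl3 and the matrix gene col5a1. Of the 16, 8 passed whichever 1 of the 6 libraries was left out, among them ttn.1, ttn.2, atp2a1, myom2a and postn. ttn.1 and ttn.2, and myom2a and myom2b, are pairs of similar copies between which reads may be split. Linear CPM of the muscle list, 18 hosts of 67 symbols, summed to 4602, 3231 and 4381 at 8.5 weeks and 5332, 29675 and 22623 at 3.5 weeks.

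With library 1 of 3.5 weeks alone against the older brains, 5 hosts rose and 0 fell in edgeR (102 at an unadjusted p under 0.05). The 12 hosts that had risen had a median change of 0.99 there, against 1.06 in the full comparison. All 12 were above 0, which their lack of overlap already implied. Library 1 had also helped to select them, so their sign is no separate support. Of the 16 muscle-position hosts that had fallen, 14 could be tested and 12 were still below 0, with a median of -0.86 against -3.58. hspa8 and stau2 had changes of -0.50 and -0.48 in that comparison and did not pass. Of the 1163 hosts tested without a muscle position, 16 were called in the full comparison. By position, 46 of 1753 changed (2.62%), 19 up (1.08%) and 27 down (1.54%), and 24 of those that fell were muscle positions. Without libraries 2 and 3 of 3.5 weeks the counts by position were 9 and 0. Of the 8.5-week libraries, removal of library 1 brought the 46 to 27 and removal of library 3 to 19, and with library 3 of 3.5 weeks removed 21 were called. Linear levels did not overlap at 182 positions that were higher at 8.5 weeks (10.4%) and 150 that were lower (8.56%).

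**Figure D5:**
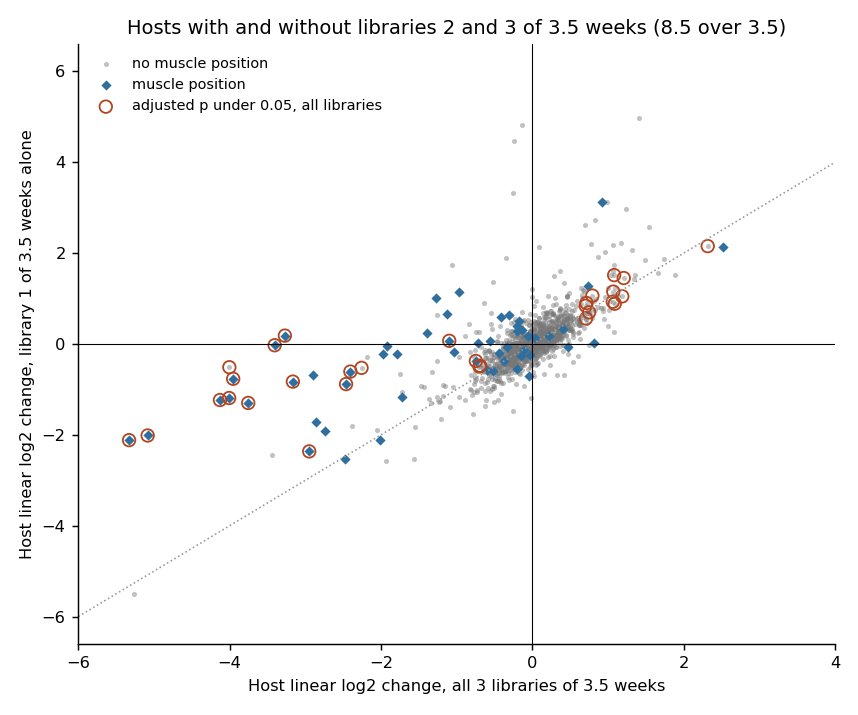
Log2 change of linear reads, 8.5 over 3.5 weeks, for 1210 hosts: with all 3 libraries of 3.5 weeks (horizontal) and with library 1 alone (vertical); each point is a host, and the 55 with a muscle position are marked. Their median was -0.75 with all libraries and -0.17 with library 1 alone, and 47 and 33 of the 55 were below 0.

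Gene lists were read by their counts beside those of all hosts. Of 1232 hosts, 585 had a linear change above 0, 12 rose (0.974%) and 20 fell (1.62%). The lists were chosen with earlier results of these data known, so their counts are not independent support. Circular levels summed over all hosts and unannotated loops were 33904, 26440 and 36050 CPM at 8.5 weeks and 22397, 24243 and 24828 at 3.5 weeks, without overlap, so a list without overlap in circular level is no exception. Of 30 glutamatergic postsynapse hosts, 26 had a linear change above 0 (median 0.27), 3 rose and 0 fell; the 3 are cnksr2, rasgrf2 and dlg1. The median was 0.28 without libraries 2 and 3 of 3.5 weeks. Others of that list did not pass, among them gria2, an AMPA receptor subunit (0.51, edgeR adjusted p = 0.061), and the metabotropic receptors grm3 (0.49) and grm8b (0.53). Circular levels summed over the list were 1170, 1022 and 1328 CPM at 8.5 weeks and 670, 593 and 826 at 3.5 weeks, which do not overlap. Of its 32 tested circRNAs, 25 had a change above 0 (median 0.70), against 420 of 639 (median 0.47) over all circRNAs.

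Of 15 presynaptic hosts, 12 had a linear change above 0 (median 0.25) and none passed. They include snap25 of the fusion machinery (0.34), the calcium sensor syt1 (0.33) and the synapsin syn3 (0.45). Summed circular levels of that list were 351, 278 and 370 CPM at 8.5 weeks and 186, 65.8 and 176 at 3.5 weeks, without overlap. Of 7 hosts of inhibitory synapses, 6 had a linear change above 0 (median 0.16) and none passed. Each of the 7 circRNAs with enough reads was above 0 (median 1.75), against 420 of 639 over all circRNAs. Of the 7, gabra6b passed the test. Circular levels of these hosts summed to 468, 278 and 199 CPM at 8.5 weeks and 84.8, 121 and 96.6 at 3.5 weeks, again without overlap. The list had 48, 22 and 22 circular reads at 8.5 weeks, of which gabra6b gave 26, 14 and 3. At 3.5 weeks it had 10, 11 and 11, of which gabra6b gave 1, 0 and 4. Without gabra6b the groups would overlap. Of 14 ion channel hosts, 13 had a linear change above 0 (median 0.23) and none passed, and the circular levels overlapped, with 371, 303 and 379 CPM at 8.5 weeks and 407, 241 and 211 at 3.5 weeks.

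Lists of other functions had few members past the test, apart from the muscle list. Of 34 axon guidance and adhesion hosts, 17 had a linear change above 0 (median -0.00) and none passed. Of 28 regulators of small GTPases, 12 were above 0 and 1 rose, rasgrf2, and of 17 chromatin and transcription hosts 7 were above 0 and none passed. Of 24 hosts known to make circRNAs in mammals, 19 were above 0 (median 0.18), with rasgrf2 higher and stau2 lower past the test. Of 3 oligodendrocyte hosts qkia rose, enpp6 had a change of 0.16 and ugt8, the enzyme of the myelin galactolipids, of -0.76 (edgeR adjusted p = 0.08). Their linear levels summed to 5334, 6171 and 4534 CPM at 8.5 weeks and 4162, 4456 and 3593 at 3.5 weeks. Summed circular levels of those 3 were 507, 265 and 289 CPM at 8.5 weeks and 42.4, 154 and 264 at 3.5 weeks. Of the 17 tested hosts of the muscle list, 1 was above 0 and 8 fell (median -2.90, and -0.22 without libraries 2 and 3 of 3.5 weeks).

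The remaining lists had 0 or 1 member past the test. Of 14 growth and nutrient signalling hosts, 10 were above 0 (median 0.16), and of 20 cytoskeleton and motor hosts 7 were (median -0.04), with none past the test in either. Of 8 splicing regulators 4 were above 0 and qkia rose, and of 6 translation hosts 3 were above 0 and hspa8 fell. Of 9 ubiquitin and proteasome hosts 4 were above 0, and of 6 neurogenesis hosts 4, again with none past the test. The interferon and inflammation list had helz2, which rose, and jak1, a cytokine receptor kinase (-0.07). Of the astrocyte list, atp1a2a fell (-2.41) and lies at a muscle position, and ptprz1b had a change of 0.52 and did not pass; their linear levels summed to 410, 442 and 723 CPM at 8.5 weeks and 441, 1372 and 791 at 3.5 weeks. cdh5, a cadherin of vessel walls and the 1 blood vessel marker measured, had a change of -0.08. The neuronal markers snap25, syt1 and elavl4 (-0.44) did not pass.

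Muscle libraries of the same ages, 2 at 8.5 weeks and 2 at 3.5 weeks, served to ask whether a change differed between tissues. The interaction term passed for 0 of 896 circRNAs in edgeR (59, or 6.58%, at an unadjusted p under 0.05) and for 0 in DESeq2 (28 unadjusted). A circRNA without reads in these muscle libraries could not pass, because its change in muscle is undefined. That holds for gabra6b, LOC107395747 and enpp6-c2, which had 0 circular reads in each of them, so the question stays unanswered there. The smallest p was that of gulp1, an adaptor of the engulfment of dying cells, whose loop (chromosome 9, 3411254 to 3411821) had 37, 11 and 41 circular reads in brain at 8.5 weeks and 13, 20 and 16 at 3.5 weeks. In muscle it had 84 and 54 reads at 8.5 weeks, against 3 and 1 at 3.5 weeks. The difference, brain minus muscle, was -3.79 on the log2 scale (SE 0.98, edgeR adjusted p = 0.0935). It passed when libraries were scaled by circular reads (edgeR adjusted p = 0.0202) and with the replicate number as a block (0.0197). No circRNA passed in the other fits. The smallest adjusted p of any circRNA was 0.242 in DESeq2. With 1 library left out it lay between 0.0594 (library 3 of 8.5-week brain) and 0.594 (library 1 of 8.5-week muscle) in edgeR. The interaction of the circular share passed for 0 of 893 circRNAs (26 unadjusted in edgeR, 2.91%).

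The authors' deposited table for adult against young brain, read here as 8.5 against 3.5 weeks, lists 251 circRNAs, each with a p-value of a test that the file headers call bbTest. A p under 0.05 is given for 37 of them in the authors' deposited table, and 0 remain after Benjamini-Hochberg adjustment (smallest 0.154). The smallest p-values in the authors' deposited table are those of xpr1a (0.000751), LOC107390307-c1 (0.00143), LOC107395747 (0.00338), ptprg-c1 (0.0036) and unannotated-c59 (0.0038). Each of these 5 had a higher circular level at 8.5 weeks in the counts above or, for ptprg-c1, 4, 3 and 9 circular reads at 8.5 weeks, against 2, 1 and 0 at 3.5 weeks. Circular levels may not be the measure that the deposited test compared, and both rest on the same libraries. The share tests above passed for 0 circRNAs. The authors' deposited table does not say whether its p-values are adjusted.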

How the data were processed

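The authors deposited, for 1810 circRNAs and 15 libraries, raw read counts of 2 kinds, circular junction and linear, with coordinates, strand and host gene. The authors' deposited p-values for adult against young brain were used as given, with Benjamini-Hochberg adjustment added. STAR 2.5.2b was used per the submitters' processing notes. Not given in the sources used here are the circular junction caller, the genome build, the annotation and how linear counts were defined. The tables held 0 columns of other samples. Of 1262 hosts, 705 are named in the file, 339 took a symbol from a RefSeq table (assembly NfurGRZ-RIMD1, names alone) and 218 kept an identifier.

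Features with 10 or more reads over the 9 brain libraries were tested with edgeR 4.0.16 (R 4.3.3) quasi-likelihood F tests in 1 fit of all brain ages, Benjamini-Hochberg at 0.05, with library sizes and TMM factors from linear counts. Shares were tested in the same way with paired columns, a circular and a linear one per library, and tissue differences in 1 fit of 15 libraries. Library values used two-sided exact permutation tests; thinning used 200 draws. In simulated counts, the circular test recovered 0% of log2 changes of 1, 22.2% of 2 and 84% of 4 over 658 circRNAs, the share test 2.17, 12.5 and 72.3% over 653, and the linear test 60, 96 and 100% over 1758 positions. The spread between simulated libraries was set in advance, not estimated from these libraries, so recovery in the real counts may differ. Intervals (exact, 95%) cover counting error only, and reads without molecular identifiers are not independent molecules. Floors (3 counts) cover only the counting error of the group with 0 reads, so folds against a floor are not lower bounds. In the linear reads of the 6 libraries, no replicate pair of an age agreed within sampling noise. Circular reads were not compared in this way.

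Alternatives were DESeq2 1.42.0 and its size factors, TMM of circular counts, other filters, a beta-binomial test, each library left out, the replicate block, the 6 libraries alone, and leaving out libraries 2 and 3 of 3.5 weeks or muscle positions. Other pairs left out, counts outside muscle positions, the contrast of exonic and other loops, and the share without 1 position near a ceiling were added after seeing the data.

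Members and gene lists (22, of which 20 have a host in the table; the microglia and cell cycle lists have none) were chosen with earlier results of these data known. Genes were named by rule: the 10 circRNAs with the most reads; up to 10 per direction past each test, or, with fewer than 3 calls, the 5 smallest p; up to 4 per list; the 5 smallest p of the deposited table and of each interaction; and the 5 hosts with the most circRNAs. Hosts past the linear test beyond the 10 largest changes (among them hspa8, stau2, adcyap1r1a, mprip and neb) and list members quoted for linear reads were named after their values were seen.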

Additional observations from a re-analysis of the deposited data

How the results depend on the processing

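The difference in total circular share was positive under each alternative, and the share tests of circRNAs and hosts made 0 calls under each. The share of loops with an end outside exons, -0.05 points, became 0.302 without the 10 positions with most linear reads and 0.0944 without libraries 2 and 3 of 3.5 weeks; with single libraries left out it reached 0.276 (library 2 of 8.5 weeks) and 0.0592 (library 2 of 3.5 weeks), its lowest being -0.279. Circular calls of circRNAs (1) were 0 in DESeq2, with the replicate block and without libraries 1 and 2 or 1 and 3 of 3.5 weeks, 2 with 30 or more reads, and 0 to 4 with a library left out (4 without library 3 of 3.5 weeks). Circular calls of hosts (1) were 0 in DESeq2, with TMM of circular counts and with the replicate block, 2 with 30 or more reads and 0 to 2 with a library left out. Linear calls by position (46) were 9 without libraries 2 and 3 of 3.5 weeks, 25 in the 6 libraries alone, 22 outside muscle positions and 19 to 50 with a library left out. Linear calls of hosts (32) were 5, 21 and 16 in those settings, 21 without libraries 1 and 3, and 13 to 40 with a library left out; DESeq2 called 36 and gave no adjusted p for 431 hosts. Interaction calls (0) were 1, gulp1, with TMM of circular counts and with the replicate block. Without libraries 2 and 3 of 3.5 weeks the sign turned for astn1-c1 (0.47), the circular reads of astn1 (0.40), and the linear reads of ak1 (0.068) and neb (0.18). The cause of these differences was not tested. Replicate numbers did not pair the libraries: deviations of same-numbered libraries correlated at -0.093 to 0.041. Of the single genes named, 1489 values kept direction and side of the threshold, 247 no longer passed and 10 newly passed. With a median of 6 circular reads per circRNA, depth limits the test of a single loop, and the smallest exact p of 3 against 3 libraries is 0.1.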
